A study of Rattus norvegicus with 6 samples.

Results

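Genes for the proteins of the cytosolic ribosome were followed in whole ovaries of neonatal Wistar rats. They were taken by symbol, as Rpl or Rps with a number, its a, x or y forms and its like forms, together with Rplp0, Rplp1, Rplp2 and Rpsa. Symbols beginning LOC or RGD were left out, so unnamed copies and processed pseudogenes were not counted. The rule found 142 probes for 81 genes, of 15154 gene symbols that could be given to probes of the array, and each gene was read from its brightest probe.

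Pups received lipopolysaccharide (LPS), the outer-membrane component of Gram-negative bacteria that provokes an acute immune response, from Salmonella enterica at 0.05 mg/kg into the peritoneum on PNDs 3 and 5, or an equal volume of saline. Ovaries of female pups were taken on PND 7, and total RNA was hybridised to 6 single-colour arrays, 3 for each treatment. Levels are log2 signals after subtraction of the 75th percentile of each array and are given in the order of replicates 1 to 3. Differences are LPS minus saline on the log2 scale.

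Ribosomal proteins build the large (60S, Rpl genes) and small (40S, Rps genes) subunits around ribosomal RNA, and every growing cell makes them in matched amounts. Their mRNAs are among the most abundant in most tissues, and many begin with a C followed by a run of pyrimidines, the terminal oligopyrimidine (TOP) tract, through which mTOR signalling and the binding protein Larp1 control their translation and stability. Since that control acts largely on translation, total mRNA reads only part of it. In the ovary, growing oocytes store ribosomes for the embryo and granulosa cells divide rapidly.

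The letters around the start sites of the genes are shown first, because the tract is the best known feature that many of these genes share. RefSeq start sites of the GRCr8 build were found for 66 of the 81 genes, with 1 site taken for each. Each line below gives 15 bases before the listed start and the first 15 bases of the transcript, 5′ to 3′, and capitals mark the longest run of C and T where it reaches 5 letters. The first 4 genes show runs of at least 7 letters that span the start. Rps6 shows a short run upstream of the start, and the last 4 genes show no run of 5 letters.
Rpl19 (chr10:83519049-83519078, plus strand): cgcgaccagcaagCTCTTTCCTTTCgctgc
Rplp0 (chr12:46718376-46718405, minus strand): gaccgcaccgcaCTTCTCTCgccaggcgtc
Rps24 (chr16:96502-96531, plus strand): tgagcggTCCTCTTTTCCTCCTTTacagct
Rps27a (chr14:107488927-107488956, minus strand): cctaaagggcggTTCCTTCgacccggagac
Rps6 (chr5:106420526-106420555, minus strand): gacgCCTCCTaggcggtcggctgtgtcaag
Rpl18 (chr1:105325255-105325284, plus strand): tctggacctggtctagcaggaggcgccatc
Rps16 (chr1:92770643-92770672, plus strand): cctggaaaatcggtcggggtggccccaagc
Rpl22l1 (chr2:113683181-113683210, plus strand): gctccgtggatatccggttccgagttgcgc
Rpl39l1 (chr10:5966607-5966636, minus strand): actgccaggccgtcccgctatcctggtgtg

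Among the 66 genes, 23 (34.8%) had C as the first transcribed base within a run of at least 5 pyrimidines from that base on, against 2.63% of 33469 promoter entries of the rat table. A run of at least 7 C or T letters anywhere in the 30 bases was present in 47 genes (71.2%), against 17.9% of all entries. The letters CTTTCC lay on the sense strand of the 30 bases in 24.2% of the genes and in 1.24% of all entries, and on the opposite strand in 1.52% and 1.297%. CCGGAA, the core letters bound by ETS family factors, occurred on either strand of the 300-base entries in 48.5% of the genes and in 14.95% of all entries. These are matches of letters at annotated starts, which can lie some bases from the start used in the ovary, and Rps27a has 2 listed starts of which the first was read.

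Ribosomal protein mRNAs were bright on all 6 arrays and did not separate LPS-treated from saline-treated ovaries. Of the 81 genes, 78 were bright, that is, well above background on every array, and over these the differences ran from -0.24 to 0.40, or from 0.849-fold to 1.32-fold. The median difference of the 78 was -0.063, with 57 genes below and 21 above 0, and their median standard error was 0.212. Over all 81 genes the median was -0.065, and it turned to 0.039 with cyclic loess and 0.053 with quantile normalization, so the family has no direction that holds across scalings. Over the 18093 bright probes of the array, those well above background throughout, the median was 0.021 and 54% of the differences were positive. No gene passed an unadjusted p of 0.05 in either direction in limma's test (0 of 81), where 16.5% of all 30367 probes (2.46% higher and 14.1% lower) and 4.24% of the bright probes (1.85% higher and 2.39% lower) did. The same linear model without limma's moderated spread, and limma with a trended, robust spread, also gave 0 of 81.

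No member was at least 2-fold changed at that p, against 1.69% of all probes and 0.984% of the bright ones. After Benjamini-Hochberg adjustment over all probes 0 members passed, and 0 of 30367 probes did, the smallest adjusted p of a member in limma being 0.467. The 95% interval of the difference lay within a 2-fold change in both directions for 76 of the 78 bright genes, the exceptions being Rpl19 and Rpl41. It lay within a 1.5-fold change in both directions for 38 of them, so for the others a change of that size was within the error. Differences were small for most of the family, with 77 of the 78 genes (98.7%) under 0.25 in size, where 69.8% of the bright probes were. The bright probes were not matched to the members for signal. The members also moved together from array to array, so the 78 are not separate results.

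**Figure D1:**
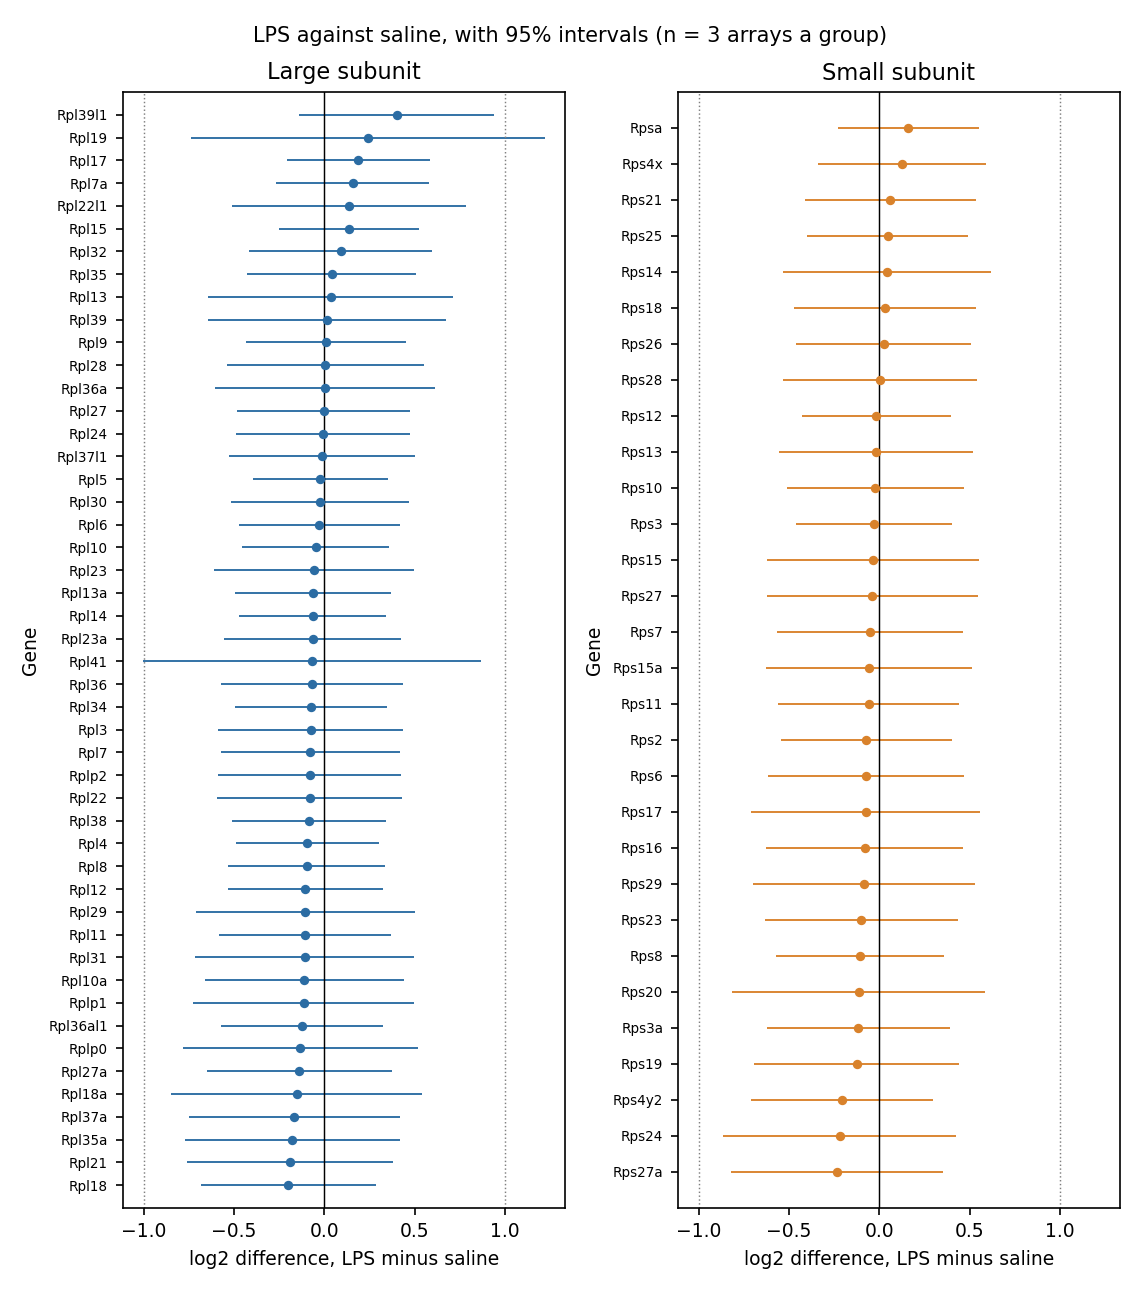
The log2 difference of each ribosomal protein gene well above background on all 6 arrays, LPS minus saline (x axis, log2 scale), with large-subunit genes on the left and small-subunit genes on the right. Points are fitted differences, bars are 95% intervals from limma with 3 arrays a group, and dotted lines mark 2-fold changes. All 78 intervals include 0, and those of Rpl19 and Rpl41 reach past a dotted line.

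Both subunits gave like values. The 48 bright large-subunit genes had a median difference of -0.067 and the 30 bright small-subunit genes one of -0.055. The median large-subunit level was 5.80, 5.63 and 5.48 with LPS and 5.86, 5.50 and 5.62 with saline. The small-subunit medians were 5.95, 5.79 and 5.58 with LPS and 6.03, 5.60 and 5.69 with saline. In each subunit saline array 1 was the highest and LPS array 3 the lowest, so the treatments overlapped. Exact permutation tests on these array medians (two-sided, n = 3 a group, smallest possible p 0.1) gave p = 0.8 for the large and p = 1.0 for the small subunit.

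The family moved together from array to array and not with treatment. The median level of the 78 genes was 5.89, 5.75 and 5.51 with LPS and 5.98, 5.53 and 5.68 with saline. The group means were 5.72 ± 0.19 and 5.73 ± 0.23 (SD, n = 3 each, exact permutation p = 0.9). Saline array 1 gave the highest value for 59 of the 78 genes and LPS array 1 for 16, whereas LPS array 3 gave the lowest for 48, saline array 2 for 18 and saline array 3 for 11. The median SD of a gene over the 6 arrays was 0.224, and it was 0.112 once the median of the family was subtracted from each array. The first component of the 78 genes over the 6 arrays held 77.0% of their variation. A gene's correlation with the median of the family, which contains the gene, was above 0.8 over the 6 arrays for 60 of 78. The points share array, hybridisation and scaling, so the value is a description.

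**Figure D2:**
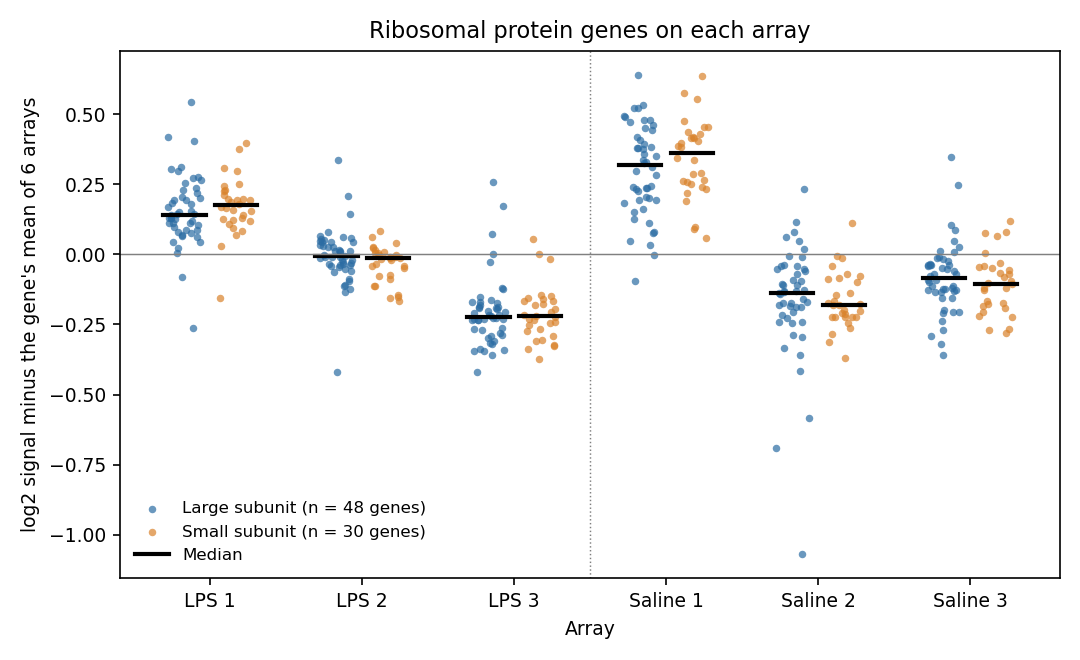
The level of each of the 78 bright ribosomal protein genes on each array (x axis) as its log2 signal minus the mean of the gene over the 6 arrays (y axis). Points are genes, coloured by subunit, and black bars are medians. Saline 1 sits highest and LPS 3 lowest, and the arrays of the treatments interleave.

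The same order was seen in other bright probes. The median deviation of the ribosomal protein genes from their own means was 0.15, -0.011 and -0.22 on LPS arrays 1 to 3 and 0.33, -0.17 and -0.094 on saline arrays 1 to 3. The 299 other probes with a mean level between 5 and 6, where 44 of the members lie, deviated by 0.14, -0.020 and -0.23 with LPS and 0.32, -0.13 and -0.065 with saline. Their median difference was -0.088. Among 4473 probes with levels between 0 and 2 the deviations stayed between -0.059 and 0.016. Over the non-control spots of each array, the 75th percentile of the background-subtracted signal was 3956, 5025 and 6754 with LPS. With saline it was 2824, 5801 and 3941. Saline array 1, highest for the family, had the lowest of these percentiles, and LPS array 3 the highest. The arrays were scaled by the same percentile of the probe averages on the log2 scale, which differs from these values. No spot was marked as saturated on any array. The part of labelling, hybridisation or scaling in this order was not tested.

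**Figure D3:**
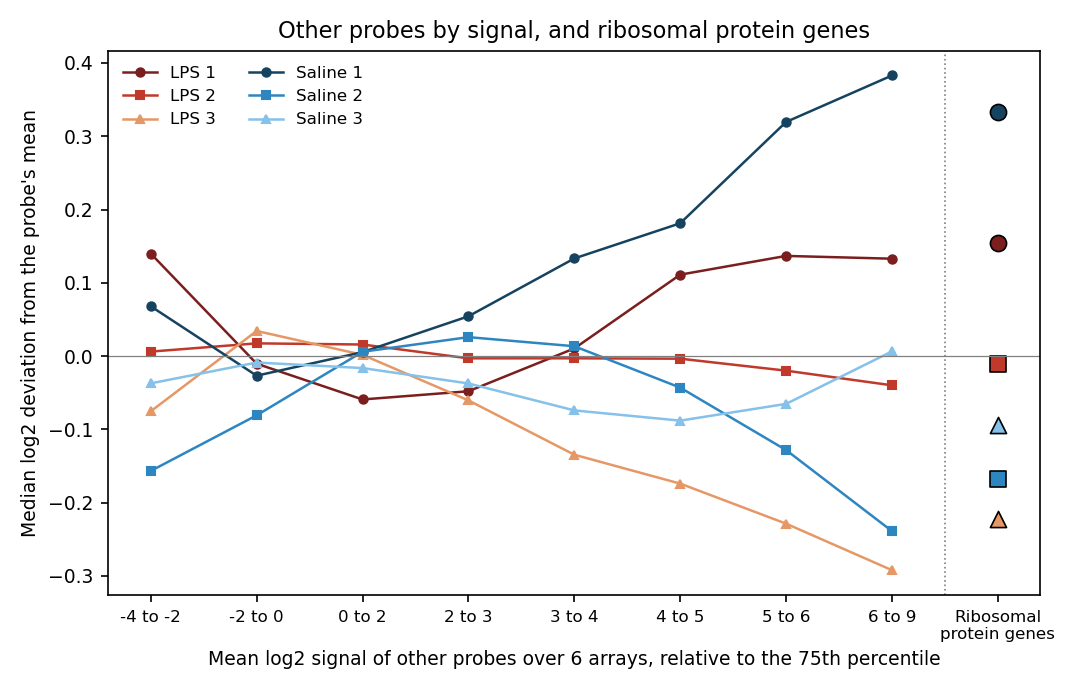
The median log2 deviation of other probes from their own mean (y axis), by their mean signal over the 6 arrays (x axis, log2 relative to the 75th percentile, probes above -4), with 1 line per array. Outlined markers on the right are the medians of the 78 bright ribosomal protein genes, which stand in the same order as other probes between 5 and 6.

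As a share of the summed signal of all probes, the 78 genes made up 6.39%, 6.04% and 5.75% with LPS and 6.68%, 5.43% and 5.88% with saline. The means were 6.06% ± 0.32 and 5.997% ± 0.634 (SD, n = 3 each, exact permutation p = 0.9). The highest and the lowest share were both on saline arrays. In whole ovaries, fewer cells of a type and less RNA per cell cannot be told apart.

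Facts of the whole set of arrays bear on this comparison. Between 66.3% and 76.0% of the spots of an array were well above background. All 8 measured oocyte markers and 8 of the 10 granulosa cell markers were bright throughout. The oocyte markers had a median difference of 0.42, with 0 higher and 0 lower at an unadjusted p under 0.05 in limma. Their median deviations overlapped between treatments, at -0.69, 0.72 and 0.54 with LPS and -0.40, -0.52 and 0.30 with saline. Genes of the adrenal cortex (8 measured, median deviation 4.49 and 4.48 on saline arrays 2 and 3, and between -2.78 and -1.96 on the other 4) and medulla (9 measured, 3.42 and 2.83 against -1.95 to -0.90) were high on saline arrays 2 and 3. Red blood cell genes were highest on saline array 2 (median deviation 1.18 over 6 genes). Of 16 macrophage genes 4 were higher at an unadjusted p under 0.05 in limma, where 2.46% of all probes were. These genes were Mrc1, Adgre1, Fcgr1a and Csf1r, and none passed after adjustment. The part of these cells in the levels of ribosomal protein genes was not tested. Without saline arrays 2 and 3 the difference is read against saline array 1 alone, the brightest array for the family, and its median was -0.36 with 61 of 81 genes lower on all LPS arrays than on that array. The median over all probes was then -0.15, and 55.4% of all probes did not overlap.

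The P-stalk of the large subunit, which recruits and activates the elongation factors, is made of Rplp0 and of Rplp1 and Rplp2 pairs. Rplp0, the stalk base and a common reference gene for quantitative PCR, read 6.71, 6.48 and 6.15 with LPS and 7.03, 6.18 and 6.52 with saline. Its difference was -0.13 (SE 0.273), and the groups overlapped. Rplp1 differed by -0.11 (SE 0.256) and Rplp2 by -0.081 (SE 0.212). All 3 were highest on saline array 1 and lowest on LPS array 3, the arrays that were most often highest and lowest in the family.

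Rpl5 and Rpl11, which with 5S ribosomal RNA bind Mdm2 and so stabilise p53 when ribosome assembly fails, differed by -0.023 (SE 0.156) and -0.11 (SE 0.195). Rpl5 had the smallest standard error of the bright genes, reading 4.96, 5.08 and 5.04 with LPS and 5.16, 4.99 and 5.00 with saline. Its correlation with the median of the family over the 6 arrays was 0.43. Rps6, the substrate of the S6 kinases downstream of mTOR, differed by -0.076 (SE 0.227), and a dimmer probe of it by 0.17 (SE 0.261). Rps19 and Rps14, known for their loss in Diamond-Blackfan anaemia and in the 5q- syndrome, differed by -0.13 (SE 0.237) and 0.040 (SE 0.241). Rpl13a, released from the ribosome in interferon-treated monocytes to silence inflammatory mRNAs, differed by -0.062 (SE 0.181). Rps3, which also takes part in NF-κB binding to DNA, differed by -0.031 (SE 0.181). Rpl10, Rpl24 and Rpl38, a late-joining protein and the genes of the Belly spot and tail and of the Tail short mouse mutants, differed by -0.048, -0.0063 and -0.086.

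At the upper end, Rpl39l1, a testis-enriched like form of the exit tunnel protein Rpl39, had the highest difference of all members. It read -0.16, 0.17 and 0.096 with LPS and -0.085, -0.75 and -0.26 with saline. LPS array 1 lay below saline array 1, so the groups overlapped, and the difference was 0.40 (SE 0.226, limma adjusted p = 0.470, exact permutation p = 0.2). Rpl39 itself differed by 0.014 (SE 0.275). Rpl17, at the rim of the exit tunnel, read 5.75, 5.60 and 5.49 with LPS and 5.55, 5.34 and 5.39 with saline, a difference of 0.19 (SE 0.166). Its difference stayed positive under all 22 alternatives run, from 0.059 to 0.56, as did those of Rpl39l1, Rpsa and Rpl7a. Some of the alternatives, such as those that change only the spread, cannot alter a fitted difference and are no check on its sign. Rpl17 reached an unadjusted p of 0.047 in limma after cyclic loess, with no adjusted call.

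Rpsa, the laminin receptor homologue of the small subunit, differed by 0.16 (SE 0.164), and a dimmer probe of it by -0.095. Rpl7a, on the outer face of the large subunit, differed by 0.16 (SE 0.178). Rpl19 had a difference of 0.24 with the widest error of the bright members (SE 0.410). Its probe read 6.06, 5.99 and 5.66 with LPS and 6.24, 4.71 and 6.03 with saline, so the low value of saline array 2 set the difference. A further Rpl19 probe read 5.49 on that array and differed by -0.11, and without saline array 2 the brighter probe differed by -0.23.

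At the lower end of the bright genes, Rps27a, made as a fusion with ubiquitin, read 5.36, 5.10 and 4.94 with LPS and 5.80, 5.24 and 5.06 with saline. Its difference was -0.24 (SE 0.246, exact permutation p = 0.5), and its dimmer probe gave -0.035. Rps24 differed by -0.22 (SE 0.271) and Rps4y2 by -0.21 (SE 0.210). In both, saline array 1 was the highest array, and the other saline arrays lay among the LPS arrays. Rps4x, the X-linked form of the same protein, differed by 0.12 (SE 0.194), the opposite sign to Rps4y2, with each value smaller than its standard error.

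Like forms are close copies of core ribosomal protein genes, often with tissue-restricted expression. The rule took 7 of them, and their differences ran from -2.51 to 0.40. The extremes of the whole family were both among these forms, at Rpl27l2 and Rpl39l1. Rpl22l1 differed by 0.14 (SE 0.271) and Rpl22 by -0.081 (SE 0.214), Rpl36al1 by -0.13 (SE 0.188) and Rpl36a by 0.0036 (SE 0.256). Whether probes for such close copies read only their own transcript could not be checked here, so values within a pair are uncertain. Of the other pairs, Rpl3 differed by -0.076, Rpl7 by -0.077 and Rps27 by -0.039.

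The 3 members that were not well above background throughout were all like forms. Rpl27l2 was the 1 member of 81 whose groups did not overlap (23.4% of all probes did not, and 11.4% of the bright probes). It read -7.02, -7.06 and -7.55 with LPS and -6.69, -6.32 and -1.09 with saline. It exceeded background on saline array 3 alone, and that array set a difference of -2.51 (SE 1.415, limma adjusted p = 0.467). Saline arrays 1 and 2 were dim as well, so no fold change is given. Rpl3l, the striated muscle form of Rpl3, was dim throughout and has no fold change. Rps12l4 was well above background on 4 arrays and read between -4.52 and -3.09, highest on saline array 1.

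Further probes for the same genes gave a check on these values. There were 61 of them for 47 genes, 60 of them bright, and their median difference was -0.0092. The median gap between such a bright probe and the main probe of its gene was 0.081 in size, and 58 of the 60 differed between treatments by less than 0.25. The sign of the difference was that of the main probe for 38 of the 60, so the signs of such small differences often did not hold between probes. A dimmer probe of Rps16 was the only 1 of the 142 probes at an unadjusted p under 0.05. It read 3.33, 3.75 and 3.35 with LPS and 2.77, 2.36 and 2.78 with saline, a difference of 0.84 (SE 0.210, limma adjusted p = 0.271). The brighter Rps16 probe differed by -0.082 (SE 0.228), so the probes of this gene disagreed, and which transcripts each reads could not be checked here.

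Genes with and without a long C or T run in the 30 bases around their start had close medians. Such a run can lie wholly before the start, as in Rpl13a, so TOP tracts themselves were not compared. The 47 bright genes with a run of at least 7 C or T letters had a median difference of -0.057, within -0.24 to 0.24. The 16 bright genes with a start site but no such run had a median of -0.070, within -0.20 to 0.40. Rpl19, Rplp0, Rps24 and Rps27a, whose runs are printed above, differed by 0.24, -0.13, -0.22 and -0.24. Of these, Rpl19 and Rplp0 start with C and at least 5 pyrimidines from that base on, and Rps24 and Rps27a do not. Rpl18, Rps16, Rpl22l1 and Rpl39l1, without a long run, differed by -0.20, -0.082, 0.14 and 0.40.

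Other genes of the translation apparatus were read from lists. Of ribosomal proteins whose symbols fall outside the rule, Fau differed by -0.10 (SE 0.241) and Rack1 by 0.12 (SE 0.184). Fau is a small-subunit protein made as a fusion with a ubiquitin-like protein, and Rack1 is a scaffold on the small subunit. None of 9 translation elongation genes passed an unadjusted p of 0.05 in limma (median difference -0.033). Of these, Eef1a1, which delivers aminoacyl-tRNA, differed by -0.023 (SE 0.275), Eef2, the translocase, by -0.21 (SE 0.217), and Tpt1, a TOP mRNA, by -0.13 (SE 0.257). None of 30 translation initiation genes passed (median 0.024), and Pabpc1, the poly(A)-binding protein and another TOP mRNA, differed by -0.076 (SE 0.191).

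Of 55 ribosome biogenesis genes 2 were higher at an unadjusted p under 0.05 in limma and 0 lower (median 0.062). Among all probes 2.46% were higher at that p and 14.1% lower. Nmd3, the export adaptor of the large subunit, was higher by 0.39 (SE 0.159, adjusted p = 0.298), with -1.11, -1.03 and -0.89 on the LPS arrays against -1.40, -1.32 and -1.47. Taf1a, of the RNA polymerase I factor SL1, was higher by 0.73 (SE 0.184, adjusted p = 0.271), at a signal well above background on 3 arrays only. In the list of mTOR and TOP control genes 1 of 24 was lower at that p (median 0.029). Rps6ka1, an S6 kinase of the Erk pathway, had a difference of -1.19 (SE 0.413, adjusted p = 0.271), and was high on saline arrays 2 and 3 (3.17 and 2.83, against 1.55 on saline array 1 and 1.26 to 1.46 on the LPS arrays), the arrays with high adrenal genes. Mtor differed by 0.14 (SE 0.190).

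Mitochondrial ribosomal proteins, which translate the mRNAs of the mitochondrial genome, gave the closest comparison. Of 66 measured genes, 1 was higher and 1 lower at an unadjusted p under 0.05 in limma, where 2.46% and 14.1% of all probes were. The median difference of the 66 genes was -0.093. Mrpl3 was higher by 0.44 (SE 0.156, adjusted p = 0.274) and Mrpl57 had a difference of -0.43 (SE 0.165, adjusted p = 0.283). Their differences, over genes well above background, ran from -0.58 to 0.50, whereas the cytosolic family ran from -0.24 to 0.40. The median deviation of the mitochondrial genes was 0.0094 on saline array 1 and -0.052 on LPS array 3, so they did not share the array order of the cytosolic genes. That order went with signal among other probes, being seen at levels between 5 and 6 and not between 0 and 2. The mitochondrial genes were not matched to the cytosolic ones for level, so this contrast cannot be read as particular to the family. The difference between the families was not tested.

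**Figure D4:**
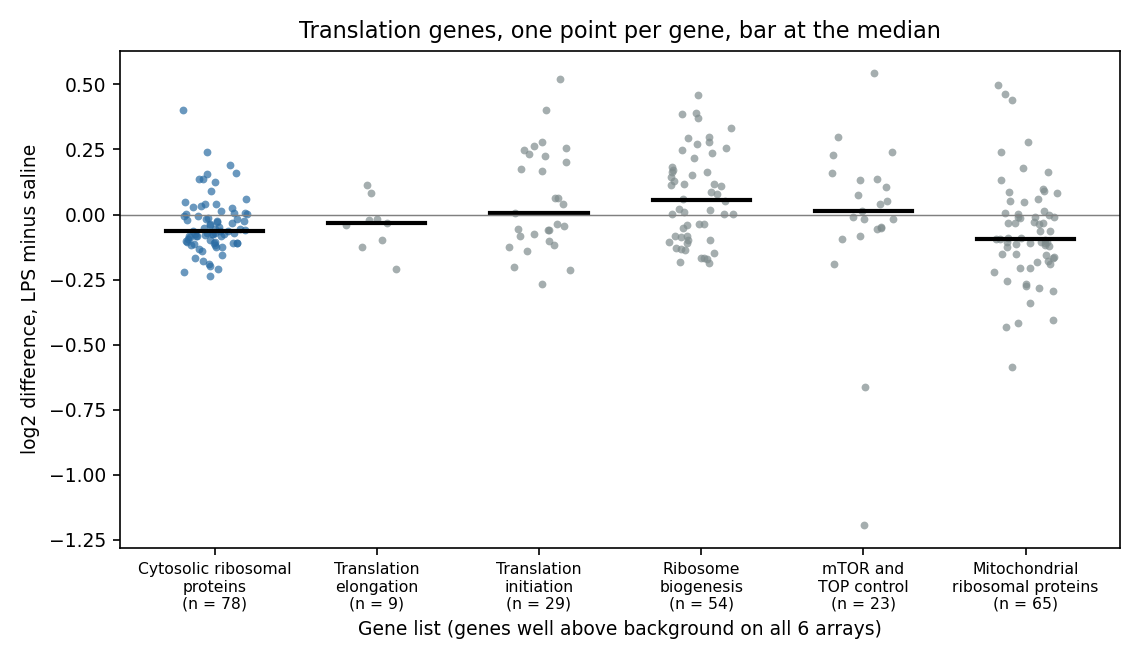
The log2 difference of each gene, LPS minus saline (y axis, log2 scale), for cytosolic ribosomal proteins and 5 other lists of translation genes (x axis), over genes well above background on all 6 arrays. Points are genes and black bars are medians, which lie between -0.093 and 0.058. The cytosolic ribosomal protein genes lie between -0.24 and 0.40.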

How the data were processed

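Ovarian RNA of LPS-treated and saline-treated neonatal rats, 3 samples each, was measured on single-colour Agilent arrays, grouped by the labels. The authors deposited, for each array, spot intensity values from Agilent Feature Extraction 10.5.1.1, whose processed signal is background-subtracted, and a whole-series table of intensity values that matched that signal within 0.497%. The submitters' processing notes name lumi, and the methods name a 2-fold difference and a p under 0.05 but no normalization or test for arrays. The quality marks (other values) deposited with each spot were used to drop outlier spots and to call signal well above background.

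Here, the log2 processed signals of the spots of a probe were averaged, and the 75th percentile of each array was then subtracted. The values were fitted with limma 3.58.1 (R 4.3.3, lmFit and eBayes) over 30367 probes with Benjamini-Hochberg adjustment. Probes were named through RefSeq accessions with a table of GRCr8, used for names and start sites only (17998 probes matched). Intervals are 95%. Single values had exact permutation tests, two-sided, and 3 arrays against 3 cannot give a p below 0.1. No fold change is given for a probe that was dim on all arrays of a group and on most of the other. The script was tested on simulated data. The methods state that whole litters were allocated to treatment. Animals for the arrays came from more than 1 litter of each treatment, but from fewer litters than arrays. How they fell on arrays is not stated, so p-values measure the spread between these samples and not between litters. The number of arrays limits the precision.

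Arrays with the same replicate number deviated together (correlations 0.298, 0.215 and 0.254 over all probes), and this is the only source for a pairing. All 6 arrays came from 1 slide and 1 scan. LPS arrays 2 and 3 lay in slide row 1 and the others in row 2.

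The genes named are the 5 highest and 5 lowest differences, the stalk genes and Rpsa, genes with close copies, 10 members with known roles outside or at the edge of the ribosome, any member at an unadjusted p under 0.05 without overlap (there was none), and of other lists the 3 largest differences at that p and 9 fixed genes. Rps16, Rpl41, Rpl18, Rpl36al1 and Rps12l4 were added after their values were seen. The members and lists were chosen with earlier results of these data known. Some results for genes of the other lists are not reported here.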

Additional observations from a re-analysis of the deposited data

How the results depend on the processing

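No member passed an adjusted p of 0.05 under any of the alternatives run, with limma's moderated spread or without it, and no more than 1 passed an unadjusted p of 0.05 under any. The median difference of -0.065 over all 81 genes turned positive after cyclic loess (0.039), quantile normalization (0.053), with slide row as a block (0.14, which is LPS array 1 against the saline arrays, the only comparison within a row), and without LPS array 3 (0.033) or saline array 1 (0.097). Over the 6 arrays left out in turn it ran from -0.15 to 0.097. Without scaling it was 0.31, where the median of all probes was 0.34. Relative to all probes it was -0.025, and scaling by 1 value per array leaves that all but fixed, so it is no separate check. With the replicate block, the pairing by number, no member changed its call. The median stayed at -0.065, as it must with 1 array of each treatment per replicate number. Without LPS array 1 the median of all probes was -0.13 and that of the members -0.15. Without saline arrays 2 and 3, tried after the data were seen, the median was -0.36, 1 member was lower at p under 0.05 and 2-fold (Rps12l4), and 61 did not overlap.

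Counts at an unadjusted p under 0.05 were 1 higher after cyclic loess (Rpl17), and 1 lower without background correction and without scaling (Rpl27l2, 1 also 2-fold in the latter). Leaving out arrays in turn gave 0 to 1 lower genes, Rpl3l without LPS array 1 and Rpl27l2 without saline array 3. The count of members that did not overlap, 1 in the values reported, was 3 with array medians (21.6% of all probes did not overlap), 8 with cyclic loess (7 higher, 11.2% of all probes), 10 with quantiles (9 higher, 10.9%), 7 without scaling (7 higher, 13.7%), 2 with all probes of a gene averaged (1 higher, 23.4%), 4 when scaled to the median of the family (2 higher, 14.4%, added after the data were seen), and 0 among probes well above background on all 6 arrays, without like forms, or without the 3 dim members (added likewise). The 1 in the values reported was lower. Leaving out single arrays gave 2 to 8 members, where 26.6% to 43.4% of all probes did not overlap. The causes were not tested.

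Single members were taken to have a direction where the difference exceeded its standard error, and of these Rpl3l, below background throughout, changed sign to 0.16 with cyclic loess, 0.080 with quantiles and 0.27 with slide row as a block. Taf1a changed to -0.015 without background correction. Over the 45 named genes, 57 values lost an unadjusted p under 0.05, all outside the family, and 5 gained one. With 3 arrays a group, the 95% interval reached past a 1.5-fold change for 40 of the 78 bright genes.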
